A study of Mus musculus with 36 samples.

Results

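The comparison described here sets 3 libraries of mouse duodenal organoids given DAPT pulses with a period of 170 min for 72 h against 3 libraries given pulses with a period of 130 min for 72 h, paired by replicate number. These are 6 of the 36 libraries of the series, which also holds a 90 min period, a DMSO control and durations of 24 and 48 h, 3 libraries each. All organoids came from the duodenum of C57BL/6 mice, male or virgin female and over 8 weeks old, were passaged 1 day before a 72 h experiment and were kept on a microfluidic chip under flow. A sample held 20 to 50 organoids, with no cell type enriched. The 170 min organoids received DAPT at 2.6 µM (the labels also name 2 µM for this period, without saying which libraries), against 2 µM in the 130 min organoids, so period and dose cannot be told apart. The labels do not say whether replicates came from different cultures or mice, and the p-values reflect how far these samples spread, and that spread may be technical. Expression is given as CPM (molecules counted by unique molecular identifier and scaled to library size by trimmed means), and a change as log2 of 170 over 130 min with its standard error (SE).

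DAPT inhibits gamma-secretase, the protease that releases the intracellular domain of Notch receptors once a ligand on a neighbouring cell has bound. In intestinal crypts, Notch signalling drives Hes1, a repressor whose expression can oscillate, and Hes1 holds down Atoh1, the factor that starts the secretory fates (Paneth, goblet, enteroendocrine and tuft cells). Cells with active Notch stay stem cells or become absorptive enterocytes, and repeated short exposures to an inhibitor impose a rhythm on this circuit. Intestinal epithelium that is growing out or repairing also uses a fetal-like programme, read out by genes such as Ly6a, Anxa1 and Clu and tied to the coactivator YAP and its DNA-binding partners, the TEAD factors.

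After 72 h, 6 of 10230 tested genes differed between the periods (edgeR quasi-likelihood test with replicate pairs as blocks, Benjamini-Hochberg adjusted p under 0.05), which is 0.0587% of those tested. In the 170 min organoids Mucl3, Msln, Neat1 and a pair of repeat-like predicted genes fell (5 genes, 0.0489%), and Aldoc, a glycolytic enzyme, rose (1 gene, 0.00978%). With these included, unadjusted p was under 0.05 for 400 genes with higher values at 170 min (3.91%) and for 431 with lower ones (4.21%). The 29 tested fetal-like and YAP target genes all had lower fitted values at 170 min. Markers of Notch signalling, stem cells and the cell cycle did not pass the test. Without the replicate blocks 0 genes passed in either direction and 388 had an unadjusted p under 0.05, while the log2 changes stayed close (-2.49 for Mucl3 and -0.75 for Neat1).

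Promoter sequences are shown for 5 genes of the fetal-like and glycolytic comparisons below, picked after their values and matches were seen, of which Aldoc passed. RefSeq windows run from 250 bases before to 50 after a gene's start, in build GRCm38.p6. Of the 37 genes named by rule, tested or not, 26 had one. F3 and Emp1 are given with matches to the AP-1 motif TGANTCA in capitals, Ajuba with matches to the TEAD motif GGAATG (read as CATTCC on the other strand), and Aldoc and Egln3 with a match to the hypoxia response core ACGTG (read as CACGT on the other strand). F3 lies on the plus strand at chr3:121723287-121723586, Emp1 on the plus strand at chr6:135362681-135362980, Ajuba on the minus strand at chr14:54577612-54577911, Aldoc on the plus strand at chr11:78322823-78323122 and Egln3 on the minus strand at chr12:54203825-54204124.
F3: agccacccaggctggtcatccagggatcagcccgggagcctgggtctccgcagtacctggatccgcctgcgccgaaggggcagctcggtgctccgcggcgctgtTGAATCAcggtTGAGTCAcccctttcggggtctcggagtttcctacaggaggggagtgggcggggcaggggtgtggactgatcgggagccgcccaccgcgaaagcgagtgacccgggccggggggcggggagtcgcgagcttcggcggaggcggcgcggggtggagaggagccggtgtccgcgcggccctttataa
Emp1: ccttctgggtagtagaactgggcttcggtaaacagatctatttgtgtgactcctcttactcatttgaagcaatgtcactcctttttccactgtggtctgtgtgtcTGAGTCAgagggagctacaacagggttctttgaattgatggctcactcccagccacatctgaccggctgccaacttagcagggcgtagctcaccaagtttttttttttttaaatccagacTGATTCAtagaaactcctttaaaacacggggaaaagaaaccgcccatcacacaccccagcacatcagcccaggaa
Ajuba: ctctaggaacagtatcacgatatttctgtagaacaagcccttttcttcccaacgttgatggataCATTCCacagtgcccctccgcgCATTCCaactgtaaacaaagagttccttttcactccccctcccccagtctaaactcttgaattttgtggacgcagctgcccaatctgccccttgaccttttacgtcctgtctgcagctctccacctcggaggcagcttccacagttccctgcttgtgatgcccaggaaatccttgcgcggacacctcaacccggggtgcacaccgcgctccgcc
Aldoc: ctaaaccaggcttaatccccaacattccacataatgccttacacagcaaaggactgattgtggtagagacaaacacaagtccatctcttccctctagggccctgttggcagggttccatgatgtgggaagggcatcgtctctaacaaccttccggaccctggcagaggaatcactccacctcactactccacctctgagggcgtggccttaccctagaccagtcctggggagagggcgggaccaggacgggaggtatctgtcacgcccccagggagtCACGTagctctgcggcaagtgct
Egln3: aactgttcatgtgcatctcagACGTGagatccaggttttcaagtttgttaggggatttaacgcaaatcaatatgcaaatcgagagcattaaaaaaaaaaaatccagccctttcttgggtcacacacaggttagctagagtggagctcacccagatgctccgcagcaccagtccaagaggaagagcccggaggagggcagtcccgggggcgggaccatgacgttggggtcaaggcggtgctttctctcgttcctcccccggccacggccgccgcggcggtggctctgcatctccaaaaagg

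Both strands were searched, and the TEAD and AP-1 motifs share no letters that would make one a match of the other. F3 and Emp1 each held 2 AP-1 matches and no TEAD match, and Ajuba held 2 TEAD matches. Aldoc and Egln3 were searched for the hypoxia core only and held 1 match each in the window shown. The Aldoc window also holds the TEAD letters as CATTCC, left in small letters above, so these letters are not limited to genes that fell. Emp1 and Aldoc each have a second RefSeq window, not shown, with 0 matches to the motifs searched in it. Over the 25 promoters of 20 tested fetal-like and YAP genes, 10 (40.0%) held GGAATG and 7 (28.0%) held TGANTCA, beside 14.7% and 7.81% of all 32851 promoters in the table. ACGTG was present in 20 of 40 promoters of 25 hypoxia and glycolysis genes (50.0%), beside 19.6% of all. These shares describe letters in a window and were not tested. The fetal-like and YAP list includes genes picked as YAP and TEAD targets, so its TEAD share may reflect that choice. The promoter of Mucl3, the gene with the smallest p, held neither the TEAD nor the AP-1 letters, and Msln and Neat1 are named only.

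The 3 pairs were unlike one another in ways that both libraries of a pair shared. Deviations from the group mean correlated between same-numbered libraries at 0.25, 0.58 and 0.39 in pairs 1 to 3, over 10343 genes with a mean of at least 10 CPM. Pair 2 stood apart from the others on the first principal component (37.6% of the variance), at 22.6 in its 170 min library and 34.9 in its 130 min library, while the other 4 libraries lay between -5.67 and -20.3. In this pair Olfm4, a stem cell marker, was lowest, with 825, 76.5 and 599 CPM at 170 min and 677, 134 and 860.1 CPM at 130 min. Summed over Eif2s3y, Ddx3y, Kdm5d and Uty, genes of the Y chromosome, the libraries held 12.2, 5.76 and 99.6 CPM at 170 min and 1.76, 11.6 and 370 CPM at 130 min, so both libraries of pair 3 carried this RNA and those of pairs 1 and 2 carried little. Xist, the RNA of the inactive X chromosome, was at 0, 0.822 and 0 CPM at 170 min and at 0 CPM in each 130 min library. Same-numbered libraries of the periods also matched in these transcripts at 24 and 48 h. Within pair 3 the 130 min library held more Y-linked RNA than its partner, and its part in the results was not tested. Total counts were 978263, 1201118 and 877857 at 170 min and 610977, 1023096 and 762361 at 130 min, higher at 170 min in every pair.

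**Figure D1:**
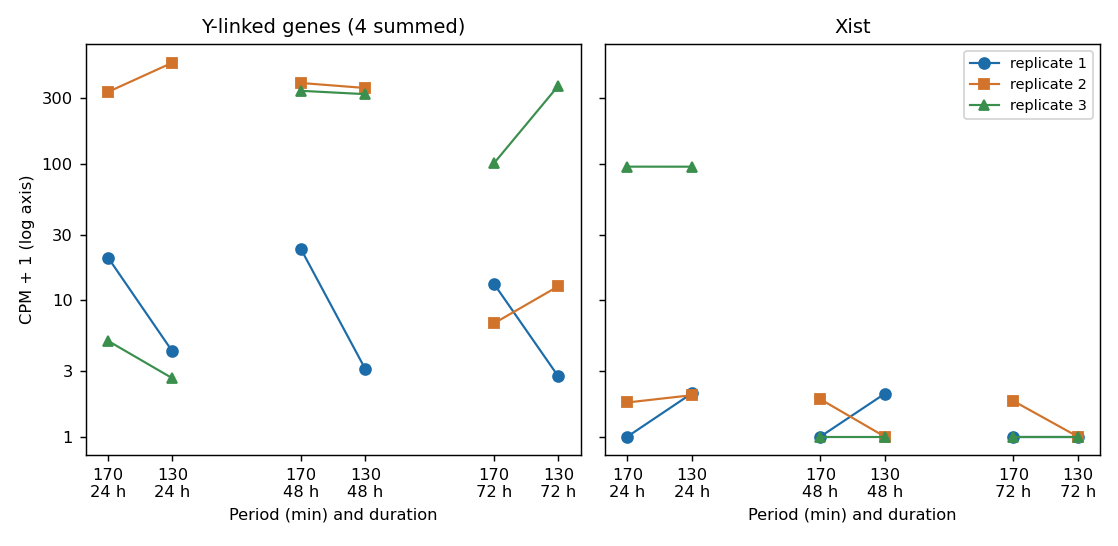
Summed CPM + 1 of 4 Y-linked genes (left) and of Xist (right) on log axes, in 170 and 130 min libraries at 24, 48 and 72 h, with lines joining libraries of the same replicate number. Replicate 3 at 72 h holds 99.6 CPM of Y-linked RNA at 170 min and 370 CPM at 130 min, and the other 72 h libraries shown hold 12.2 CPM or less.

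Mucl3, which encodes a mucin-like membrane protein, gave the smallest p of all genes. It had 13.2, 26.3 and 25.5 CPM in 170 min libraries 1 to 3, against 44.0, 103 and 218 CPM in 130 min libraries 1 to 3. The highest 170 min library lay below the lowest 130 min library, and the gap was widest in pair 3. The log2 change was -2.36 ± 0.23 (n = 3 pairs, edgeR adjusted p = 2.41e-04), with a lower value at 170 min in 3 of 3 pairs. The other treatments at 72 h had 99.6, 50.4 and 12.8 CPM in the 90 min libraries and 10.3, 14.2 and 6.34 CPM in the DMSO libraries. The 170 min libraries thus lay near the DMSO libraries, while the 90 min libraries reached from the 170 min level to the 130 min level. Neither of these treatments followed the replicate numbers in Y-linked RNA, and its part in their levels was not tested.

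Msln encodes mesothelin, a cell surface glycoprotein also counted among the fetal-like genes of regenerating epithelium. Its values were 219.8, 380.0 and 228 CPM in 170 min libraries 1 to 3, against 387, 556 and 495 CPM in 130 min libraries 1 to 3. No 170 min library exceeded the lowest 130 min library. Its log2 change was -0.81 ± 0.14 (edgeR adjusted p = 0.0221), with a lower value at 170 min in 3 of 3 pairs. At 72 h it had 452, 287 and 184 CPM in the 90 min libraries and 187, 205 and 226 CPM in the DMSO libraries. The call was lost without pair 1 (adjusted p = 0.0856) and without pair 3 (0.388), with log2 changes of -0.79 and -0.67.

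Neat1 is a long noncoding RNA that scaffolds paraspeckles, nuclear bodies that retain RNA, and is counted here among villus tip genes. It showed 288, 198 and 233 CPM in 170 min libraries 1 to 3, against 501, 334 and 384 CPM in 130 min libraries 1 to 3. The groups did not overlap, and the differences between partners were close to one another, with log2 values of -0.80, -0.75 and -0.72 in pairs 1 to 3. The fitted log2 change of Neat1 was -0.75 ± 0.13 (edgeR adjusted p = 0.0182). The 90 min and DMSO organoids were at 379.8, 285 and 226 CPM in the 90 min libraries and 278, 221 and 315 CPM in the DMSO libraries, 4 of these 6 inside the range of the 170 min libraries. Without pair 3 the adjusted p was 0.065.

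Aldoc, the aldolase isoform C of glycolysis, was the 1 gene called higher at 170 min than at 130 min. Its levels were 105, 106 and 206 CPM in 170 min libraries 1 to 3, against 72.1, 53.3 and 76.8 CPM in 130 min libraries 1 to 3. Every 170 min library was above every 130 min library, with the highest in pair 3. The log2 change was 1.04 ± 0.16 (edgeR adjusted p = 0.0166) and was higher in 3 of 3 pairs. In the other treatments at 72 h there were 99.6, 148 and 202 CPM in the 90 min libraries and 205, 163 and 217 CPM in the DMSO libraries. Leaving out any 1 pair kept the call, with log2 changes between 0.80 and 1.23. Thinning all libraries to the lowest total gave 0.85 with an edgeR adjusted p of 0.142. DESeq2 on the same 6 libraries with the replicate block gave 1.01 with an adjusted p of 0.866.

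Gm11168 and Gm10722 are predicted genes of chromosome 9 that share sequence, so their molecules may be split between them and other copies and their counts are uncertain. Gm11168 had 9.12, 8.22 and 12.7 CPM in 170 min libraries 1 to 3, against 95.0, 23.3 and 61.7 CPM in 130 min libraries 1 to 3. Gm10722 had 12.2, 9.05 and 5.79 CPM in 170 min libraries 1 to 3, against 109, 19.4 and 38.4 CPM in 130 min libraries 1 to 3. In both, library 1 at 130 min was the highest and no 170 min library reached the lowest 130 min library. The log2 changes were -2.44 ± 0.34 (edgeR adjusted p = 0.00551) and -2.41 ± 0.37 (0.0166). The longest run of bases common to their transcripts is 84 long, on chromosome 9, shown because it lets a molecule match either gene.
Gm11168 and Gm10722: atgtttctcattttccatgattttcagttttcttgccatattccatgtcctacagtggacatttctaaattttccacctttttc

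Further tested genes share 17.5% to 83.4% of their 31-base words with this pair (Gm10719, Gm10717, Gm21738, Gm10800 and Gm10801). With the pair these are 7 genes. All 7 were lower at 170 min in 3 of 3 pairs (16.5% of all tested genes) and 2 passed (0.0489% of all passed as lower). Molecules may be split among the 7, so they do not count as separate results. Library 1 at 130 min also had the lowest total of the 6, and without pair 1 neither gene passed (adjusted p = 0.0989 for Gm11168 and 0.237 for Gm10722). With the log2 library total as a covariate their changes were -1.28 and -1.21.

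**Figure D2:**
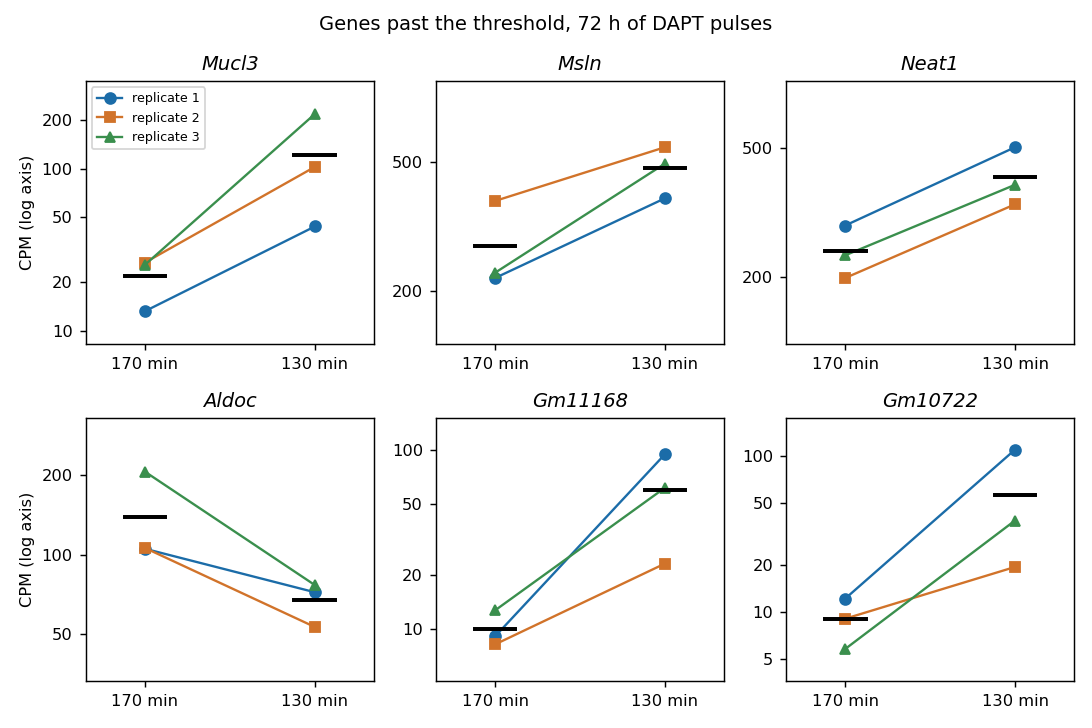
CPM on log axes of the 6 genes past the threshold in the 170 min (left) and 130 min (right) libraries at 72 h, with lines joining replicate pairs and black bars for group means. Mucl3, Msln, Neat1, Gm11168 and Gm10722 are lower and Aldoc is higher at 170 min in each pair, and in each panel the groups do not overlap.

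Genes that followed these by p did not pass. Among lower genes the next was Atp11a, a phospholipid flippase, with 14.2, 15.6 and 19.7 CPM at 170 min and 21.1, 41.7 and 94.6 CPM at 130 min (log2 change -1.56 ± 0.30, edgeR adjusted p = 0.106). Among higher genes the next were Ces1d, a carboxylesterase, at 1.02 (0.106), Mvk, the mevalonate kinase of cholesterol synthesis, at 0.80 (0.119), CT010467.1 at 0.63, 2610318N02Rik at 0.98 and Pfkl, the liver phosphofructokinase, at 1.12, these last 3 with an adjusted p of 0.165. Mvk had 87.1, 114 and 114 CPM at 170 min and 63.3, 66.9 and 52.1 CPM at 130 min, with no overlap. Pfkl had 33.4, 51.0 and 68.3 CPM at 170 min and 15.8, 28.1 and 24.7 CPM at 130 min, also with no overlap.

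**Figure D3:**
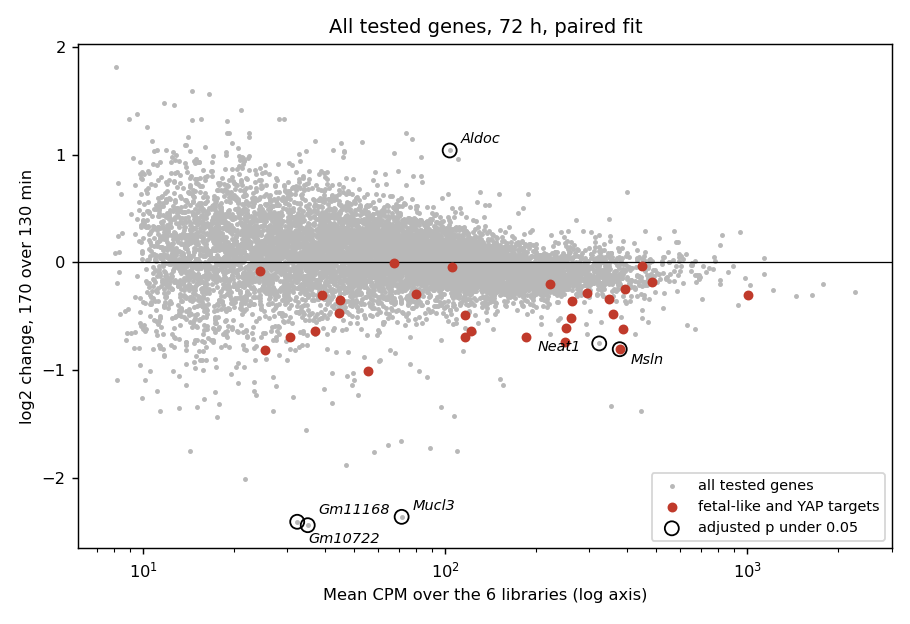
Log2 change of 170 over 130 min at 72 h (vertical axis) against mean CPM over the 6 libraries (log axis) for the 10230 tested genes, with the 29 fetal-like and YAP targets in red and the 6 genes past the threshold circled. The red points lie on or below 0, while the median of all tested genes is 0.00.

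The fetal-like and YAP target list had lower values at 170 min throughout its tested members. Of its 35 genes 29 were tested, and the 29 had fitted changes below 0 with a median of -0.48, beside a median of 0.00 over all tested genes. Msln passed over all genes (0.0489% of all tested genes passed as lower), and 17 had an unadjusted p under 0.05 with a lower value (4.21% of all). In 3 of 3 pairs 20 were lower (16.5% of all), and 8 had groups that did not overlap (5.35% of all). Members that did not pass are named here and below by theme, a choice made after their values were seen. Summed over the list, the libraries held 5160.2, 7135 and 4394 CPM at 170 min and 6376, 8699 and 7014 CPM at 130 min, lower at 170 min in each pair but with overlap between the groups with pair 2 high in both. The 90 min sums were 6889.9, 5211 and 4138 CPM and the DMSO sums 4689, 4376 and 5103 CPM.

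Among surface and secreted members, Emp1, a tetraspan membrane protein, had 283, 394 and 242 CPM in 170 min libraries 1 to 3, against 378, 535 and 494 CPM in 130 min libraries 1 to 3. It was lower in each pair, and pair 2 made the groups overlap. Its log2 change was -0.62 ± 0.14 (edgeR adjusted p = 0.195). Ly6d, a relative of the stem cell antigen Ly6a, had 221, 245 and 134 CPM at 170 min and 262, 366 and 281 CPM at 130 min, without overlap, for a log2 change of -0.61 ± 0.14 (edgeR adjusted p = 0.204). F3, the tissue factor that starts coagulation and whose promoter holds 2 AP-1 matches above, had 24.3, 62.5 and 22.0 CPM at 170 min and 38.7, 98.9 and 85.0 CPM at 130 min, with pair 3 furthest apart (-1.01 ± 0.23, edgeR adjusted p = 0.204). Areg, a ligand of the EGF receptor, had 219.8, 197 and 139 CPM at 170 min and 343, 241 and 358 CPM at 130 min, without overlap (-0.74 ± 0.17, adjusted p = 0.288 by edgeR). Il1rn, the antagonist of the interleukin-1 receptor, differed by -0.69 ± 0.17 on the log2 scale and did not overlap either.

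Members that mark fetal-like or revival stem cells also had lower values. Clu, which encodes clusterin, had 242, 407 and 239.8 CPM in 170 min libraries 1 to 3, against 327, 626 and 309 CPM in 130 min libraries 1 to 3. Both libraries of pair 2 were high, so that the groups overlapped although every partner at 170 min was lower (-0.48 ± 0.13, edgeR adjusted p = 0.304). Ly6a, which encodes Sca-1, had 268, 429 and 217 CPM at 170 min and 384, 532 and 252 CPM at 130 min, again lower in each pair (-0.34 ± 0.13). Anxa3 (-0.52 ± 0.13), Cd44 (-0.36 ± 0.13) and Anxa1 (-0.29 ± 0.13) also had a lower value in each pair. Direct YAP and TEAD targets did not pass. Ajuba, whose promoter holds 2 TEAD matches, was lower in 3 of 3 pairs (-0.49 ± 0.15) and so was Lats2, a kinase that restrains YAP (-0.82 ± 0.32), but Ankrd1 was lower in 2 (-0.69 ± 0.29) and Ccn1 in 2 (-0.08 ± 0.33). Ccn1 had 19.2, 36.2 and 15.1 CPM at 170 min and 8.80, 38.8 and 27.4 CPM at 130 min, highest in pair 2 of both groups.

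**Figure D4:**
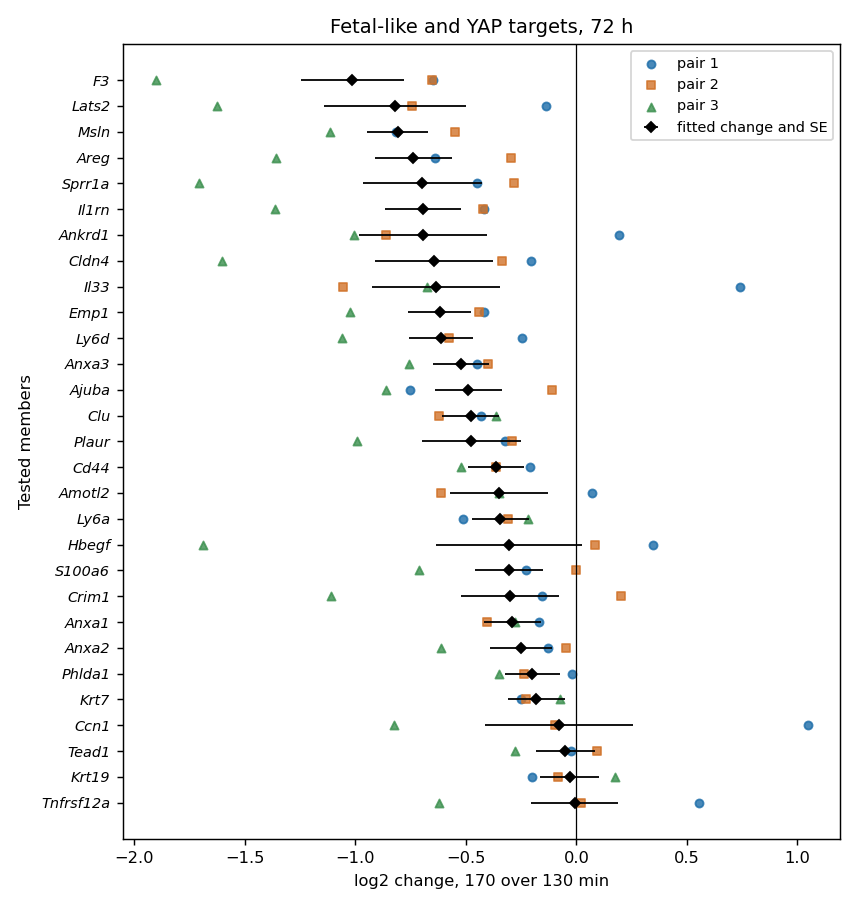
Log2 change of 170 over 130 min for the 29 tested fetal-like and YAP targets, with points for pairs 1 to 3 and diamonds with bars for the fitted change and its SE. Fitted changes run from -1.01 for F3 to -0.01 for Tnfrsf12a, and pair 3 is the furthest to the left for most members.

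The list median was -0.21, -0.31 and -0.82 in pairs 1 to 3, and -0.52, -0.46 and -0.35 in fits without pair 1, 2 or 3. Members called lower numbered 0, 9 and 0 in those fits, beside 0.0384%, 0.777% and 0.163% of all genes tested in them. The 9 called without pair 2 were Msln, Emp1, Ly6d, F3, Areg, Il1rn, Ajuba, Sprr1a and Cldn4. That fit of 2 pairs called 12 genes higher and 78 lower in all, including all 6 above and the Y-linked Ddx3y and Eif2s3y, whose difference lies inside pair 3, and its part in those calls was not tested.

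Neighbouring programmes had smaller shifts in the same direction. Of 15 tested villus tip genes 12 were lower, Neat1 passed, 7 had an unadjusted p under 0.05 with a lower value (4.21% of all) and 2 with a higher one (3.91% of all), and the median was -0.32. Krt20, a keratin of mature villus cells, had 263, 223 and 207 CPM at 170 min and 413, 246 and 401 CPM at 130 min (-0.57 ± 0.15, edgeR adjusted p = 0.283), lower in each pair. Apoc3, an apolipoprotein of the same list, went the other way in each pair (0.39). Of 25 immediate early genes 0 passed, 22 were lower and 10 were lower in 3 of 3 pairs (16.5% of all), with a median of -0.25. Atf3, a stress-induced transcription factor, had 64.8, 39.5 and 18.5 CPM at 170 min and 125, 51.4 and 61.7 CPM at 130 min (-0.91 ± 0.22, edgeR adjusted p = 0.206), and Junb, Klf6, Ier3 and Fos had log2 changes between -0.33 and -0.45. Actin and focal adhesion genes had a median of -0.21 over 26 tested, 13 of them lower in 3 of 3 pairs (16.5% of all).

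p53 targets did not pass either, with 25 of 30 lower and a median of -0.21. Gdf15, a secreted stress cytokine, had 39.5, 33.7 and 20.9 CPM at 170 min and 58.1, 61.1 and 48.0 CPM at 130 min, without overlap (-0.84 ± 0.23, edgeR adjusted p = 0.304). The cell cycle inhibitor Cdkn1a differed by -0.32 ± 0.14. Sesn1, which encodes sestrin 1, lay on the other side of 0 with 32.4, 18.9 and 31.3 CPM at 170 min and 14.1, 8.72 and 19.2 CPM at 130 min (0.98 ± 0.34, adjusted p = 0.462 by edgeR).

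Gastric and Brunner gland markers, genes of mucous glands that duodenal cultures can express, were lower in 6 of 8 tested members, with 0 called and a median of -0.51. Tff1, a trefoil peptide of gastric surface mucus, had 62.8, 129.9 and 89.2 CPM in 170 min libraries 1 to 3, against 114, 195 and 319.6 CPM in 130 min libraries 1 to 3. Library 3 at 130 min stood highest and carried most of the difference (-1.08 ± 0.24, edgeR adjusted p = 0.405). Ctse, the protease cathepsin E, showed the same order with 44.6, 146 and 89.2 CPM at 170 min and 63.3, 245 and 344 CPM at 130 min (-1.14 ± 0.28). Anxa10, an annexin of gastric epithelium, did not overlap, with 453, 630.0 and 434 CPM at 170 min and 686, 684 and 911 CPM at 130 min (-0.58 ± 0.16). The 8 changes ran from -1.14 to 0.45. Other members did not share this order. Tff2 had 36, 84 and 23 counts at 170 min and 18, 74 and 0 at 130 min. Gkn3 had 118, 44 and 63 against 40, 75 and 44 counts, with totals higher at 170 min in every pair. Muc6 and Muc5b had 0 counts in all 6 libraries. The median of the list was 0.15, -0.41 and -1.05 in pairs 1 to 3 and -0.14 without pair 3.

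Metabolic lists had medians slightly above 0. The hypoxia and glycolysis list, which does not include Aldoc, had 28 tested members with a median of 0.07, 0 called, 4 with an unadjusted p under 0.05 and a higher value (3.91% of all), 6 higher in 3 of 3 pairs (15.6% of all) and 3 with groups that did not overlap, all higher (5.4% of all). Besides Pfkl, those higher in each pair were Egln3, an oxygen sensor that hydroxylates HIF, with 40.5, 91.3 and 95.0 CPM at 170 min and 19.4, 62.0 and 43.9 CPM at 130 min (0.84 ± 0.19, edgeR adjusted p = 0.195), Pfkfb4 (1.02), Pdk1 (0.33), Pfkm (0.51) and Ddit4 (0.15). Slc2a1, Hk2, Ldha, Pgk1 and Vegfa, which encode the glucose transporter, hexokinase, lactate dehydrogenase, phosphoglycerate kinase and the growth factor VEGF-A, had log2 changes between -0.19 and 0.10. The list median was -0.12, 0.26 and 0.26 in pairs 1 to 3.

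Cholesterol synthesis genes had a median of 0.07 over 31 tested, with 0 called, 6 with an unadjusted p under 0.05 and a higher value (3.91% of all), and 8 higher in 3 of 3 pairs (15.6% of all). Without pair 3 the median was -0.0059. Those nearest to Mvk were Srebf1, the factor that drives lipid synthesis, with 89.1, 88.0 and 101 CPM at 170 min and 73.9, 58.2 and 72.7 CPM at 130 min (0.46 ± 0.16, edgeR adjusted p = 0.470), Mvd (0.47) and Ebp (0.33). Lipid handling genes split, with 15 of 23 higher and a median of 0.17, but the members with the smallest p were lower: Apob, the scaffold of chylomicrons, with 91.2, 99.5 and 79.9 CPM at 170 min and 179, 115 and 132 CPM at 130 min (-0.61 ± 0.15, edgeR adjusted p = 0.206), and Cidec, a lipid droplet protein (-1.03 ± 0.26).

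Notch pathway and cell fate genes did not pass. Hes1 had 347, 274 and 325 CPM in 170 min libraries 1 to 3, against 366, 296 and 362 CPM in 130 min libraries 1 to 3. It was lower in each pair, and pair 2 was lowest in both groups, for a log2 change of -0.11 ± 0.12 (edgeR adjusted p = 0.851). The receptor gene Notch1 had 3 to 8 counts per library and was not tested. Among the ligands, Dll1, which secretory precursors present to their neighbours, had 63.8, 55.1 and 56.8 CPM at 170 min and 56.3, 28.1 and 41.2 CPM at 130 min, higher in each pair (0.55 ± 0.21, edgeR adjusted p = 0.573), Dll4 was at 0.21 ± 0.23 and Jag1 at -0.40 ± 0.15, lower in each pair. The Notch list had 8 of 18 genes tested, 0 called and a median of -0.05.

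Atoh1 had 60.8, 116 and 91.5 CPM at 170 min and 58.1, 74.6 and 102 CPM at 130 min, higher in pairs 1 and 2 and lower in pair 3 (0.23 ± 0.17, edgeR adjusted p = 0.753). Secretory progenitor genes were higher in 13 of 15 tested, with 0 called and a median of 0.21. Spdef, a goblet and Paneth cell factor, was at 0.59 ± 0.31 and Creb3l4, a factor of secretory cells, at 0.57 ± 0.27, both higher in 3 of 3 pairs. The list median turned to -0.05 without pair 2 and was 0.46 without pair 3.

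Differentiated secretory markers did not pass. Goblet genes had a median of 0.09 over 29 tested, with 0 called. Muc2, the gel-forming mucin, had 305, 344 and 479.6 CPM at 170 min and 469.8, 292 and 556 CPM at 130 min (-0.19 ± 0.15) and Tff3, the goblet trefoil peptide, was at -0.17 ± 0.14. Capn9 (0.82) and Galnt12 (0.49) were higher and Guca2a, which encodes guanylin, lower (-0.34) in 3 of 3 pairs. Paneth genes had a median of -0.16 over 22 tested, with 0 called and 5 lower in 3 of 3 pairs (16.5% of all). Lyz1, the Paneth lysozyme, had 239, 179 and 602 CPM in 170 min libraries 1 to 3, against 222, 212 and 1232 CPM in 130 min libraries 1 to 3. In both groups library 3 was the highest by far (-0.45 ± 0.19, edgeR adjusted p = 0.612). Defa24, an alpha-defensin, had the same shape with 145, 170.2 and 331 CPM at 170 min and 195, 223 and 702 CPM at 130 min (-0.66 ± 0.15, edgeR adjusted p = 0.184), and defensin genes are near copies whose counts may be split. Mmp7, which activates defensins, was at -0.13 ± 0.13.

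Enteroendocrine genes had the lowest median of all lists in pair 3. Of 35 genes 8 were tested, the 8 had changes below 0 with a median of -0.62, and 0 passed. Chga, chromogranin A, had 12.2, 2.47 and 48.7 CPM in 170 min libraries 1 to 3, against 3.52, 3.88 and 167 CPM in 130 min libraries 1 to 3. Library 3 at 130 min held several times the level of its partner, and the 4 libraries of pairs 1 and 2 were low (-1.18 ± 0.46, edgeR adjusted p = 0.601). Summed over the list the libraries held 473, 529 and 949 CPM at 170 min and 435, 575 and 2594 CPM at 130 min. The list median was 0.23, -0.30 and -1.34 in pairs 1 to 3. Fits without a pair tested other numbers of members, as the count filter was applied anew. Members called lower were 1 of 15 without pair 1 (0.0384% of all genes tested in that fit), 6 of 11 without pair 2 (0.777% of all) and 0 of 5 without pair 3 (0.163% of all). Of the 6, Tac1 and Gip were not tested in the fit of 3 pairs. In these bulk samples fewer cells of a type and less RNA per cell cannot be told apart. Neurod1, a factor of the same lineage, had 4, 0 and 14 counts at 170 min and 0, 1 and 24 at 130 min and was not tested.

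Tuft cell genes were mostly below the count filter, with 4 of 25 tested, 0 called and a median of -0.19. Avil, an actin-binding protein of tuft cells, was the 1 tested member lower in 3 of 3 pairs (16.5% of all). Its change was the lowest of the 4, which ran from -1.03 to 0.02. Avil had 65.8, 18.1 and 15.1 CPM at 170 min and 118, 35.9 and 43.9 CPM at 130 min (-1.03 ± 0.23, edgeR adjusted p = 0.165). Dclk1, a tuft cell kinase, had 4, 1 and 2 counts at 170 min and 2, 1 and 20 at 130 min, and Pou2f3, the tuft cell factor, had 2, 4 and 2 against 1, 5 and 8 counts.

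**Figure D5:**
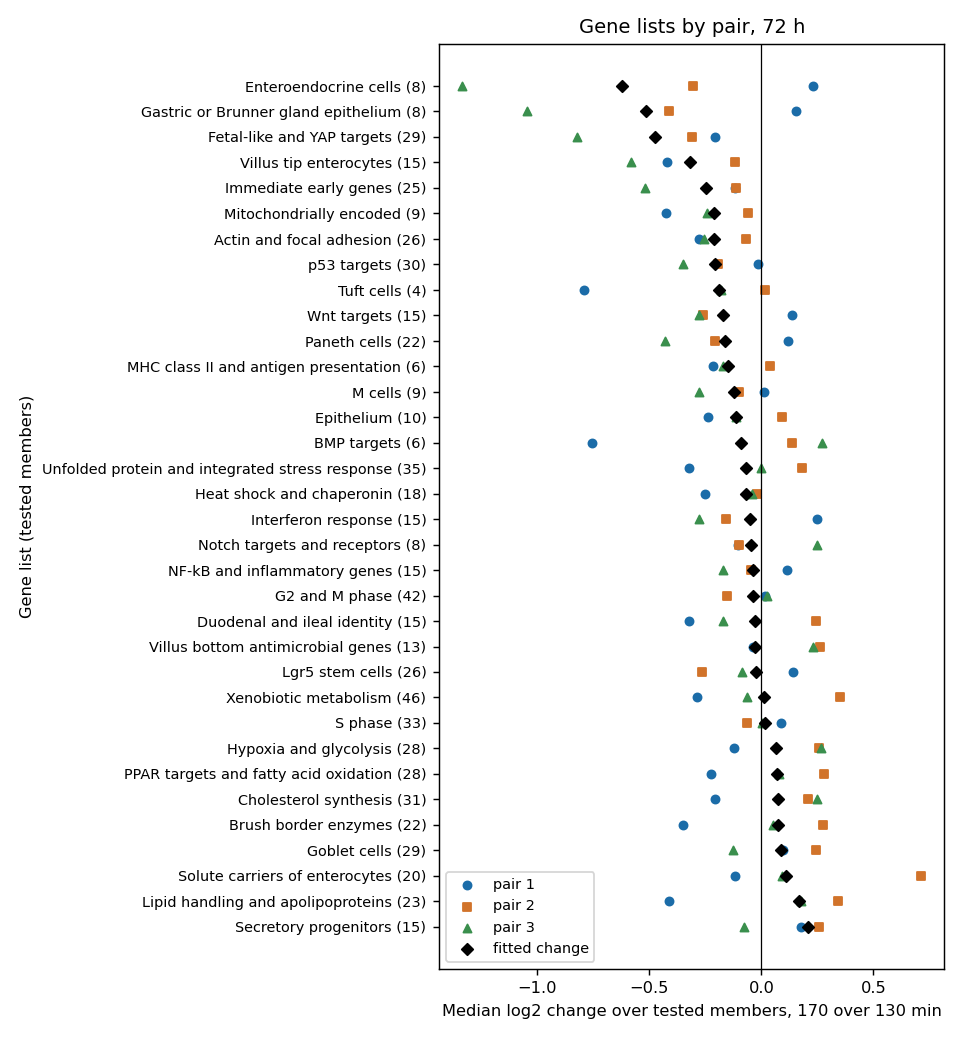
Median log2 change of 170 over 130 min over the tested members of each gene list (number in brackets) in pairs 1 to 3, with diamonds for the median of fitted changes. The enteroendocrine median is -0.62 overall and -1.34 in pair 3, and the fetal-like and YAP median is -0.48 overall and below 0 in each pair.

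Stem cell and proliferation genes had medians at 0, with -0.03 over 26 Lgr5 stem cell genes, 0.01 over 33 S phase genes and -0.04 over 42 G2 and M phase genes, and 0 called. Lgr5, the stem cell receptor for R-spondins, had 148, 60.9 and 139 CPM at 170 min and 127, 73.7 and 195 CPM at 130 min (-0.19 ± 0.14). Ascl2, a factor of stem cell identity, was at -0.01 ± 0.13, Olfm4 at -0.28 ± 0.18 and Mki67, the marker of dividing cells, at -0.08 ± 0.13. Absorptive markers did not pass. Alpi, the alkaline phosphatase of the brush border, was at 0.08 ± 0.16, Sis, sucrase-isomaltase, at 0.10 ± 0.26, Fabp1, a fatty acid binding protein, at 0.50 ± 0.69, Apoa4, an apolipoprotein, at 0.43 ± 0.47 and Reg3b, an antimicrobial lectin, at 0.25 ± 0.29. Sis shows how far the pairs differed, with 356, 155 and 437 CPM at 170 min and 526, 82.4 and 392 CPM at 130 min. Brush border enzymes had a median of 0.08 over 22 tested, with 0 called.

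Epithelial genes were abundant in every library, and markers of other cell types were at low levels apart from Cd14. The 10 epithelial markers summed to 3073, 3778 and 3371 CPM at 170 min and 3654, 3622 and 3594 CPM at 130 min. The 12 fibroblast markers summed to 8.10, 1.64 and 3.48 CPM and 7.04, 1.94 and 19.2 CPM, the 8 endothelial markers to 9.12, 6.58 and 10.4 CPM and 7.04, 6.78 and 5.49 CPM, and the 12 immune markers to 85.1, 100.3 and 59.1 CPM and 61.6, 139.6 and 53.5 CPM, with 0, 0 and 1 members tested. Cd14, a coreceptor for bacterial lipopolysaccharide, made up most of the immune sum, with 77, 112 and 40 of 84, 122 and 51 counts at 170 min and 28, 121 and 33 of 35, 144 and 39 counts at 130 min. Ptprc, the pan-leukocyte marker CD45, had 1 count in 130 min library 2 and 0 in the other libraries. Mitochondrially encoded genes made up 1.1%, 0.94% and 1.1% of counts at 170 min and 1.37%, 0.96% and 1.28% at 130 min.

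The same comparison at shorter durations gave 0 calls by edgeR, of 10936 genes tested at 48 h (467 at an unadjusted p under 0.05) and of 10983 at 24 h (898). The difference itself was tested, as the 72 h change minus that at the shorter duration. Against 48 h, 8 genes passed (0.0732% of those tested), 3 with a larger and 5 with a smaller value at 72 h, and against 24 h 0 passed, with 442 at an unadjusted p under 0.05 and a smallest adjusted p of 0.111 (edgeR). Mucl3 had a log2 change of 0.15 at 48 h and -1.39 at 24 h, and differed between 72 and 48 h by -2.51 ± 0.33 (edgeR adjusted p = 0.00148). Aldoc was at -0.06 and -0.22, and differed from 48 h by 1.11 ± 0.19 (edgeR adjusted p = 0.0369). Msln was at -0.25 and -0.37 and Neat1 at -0.07 and -0.25, and neither difference between durations passed. The fetal-like and YAP median was -0.15 at 48 h and -0.19 at 24 h, and the enteroendocrine median -0.13 and -0.19. Villus tip genes had medians of 0.04 and -0.35, hypoxia and glycolysis genes -0.02 and -0.01, and secretory progenitor genes -0.12 and 0.01. Organoids for different durations were passaged a different number of days before the experiment, so duration and time since passage cannot be told apart.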

How the data were processed

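The authors deposited 1 table of UMI counts, in whole numbers, with a row per gene symbol and a column for each of 36 libraries, made from polyadenylated RNA by Sort-seq per the labels' protocols. Per the submitters' processing notes the tools were STAR 2.7.8a and UMI-tools 1.1.1. The build and annotation were not given in the sources used here. Totals ran from 482741 to 1447330, and at these totals counting error limits genes with few molecules. Columns were matched to samples by name, with 0 left over.

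From the counts, genes were kept with edgeR's filterByExpr (10230 of 34197, with 23967 not tested), scaled by TMM and tested with edgeR 4.0.16 (R 4.3.3) in a robust quasi-likelihood fit of period plus replicate number on the 6 libraries (2 residual degrees of freedom). Two-sided p-values were adjusted by Benjamini and Hochberg's method across the 10230 genes, and those under 0.05 passed. Differences between durations were interactions over 12 libraries each, with replicate within duration as the block. The changes at 48 and 24 h came from these same fits. Printed levels are CPM with factors over all 36 libraries, and pair differences are log2 ratios of CPM + 1. Pairing by number was part of how the comparison was defined, and the correlations of deviations only describe it. Same-numbered libraries were at 0.25 to 0.58 at 72 h, 0.36 to 0.62 at 48 h and 0.39 to 0.56 at 24 h. Libraries of different number reached at most 0.08 at 72 h, 0.29 at 48 h and 0.07 at 24 h. An exact paired permutation of 3 pairs cannot go below p = 0.25, so none was used.

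The members and the 37 gene lists, some of which share genes, were chosen with earlier results of these data known. Lists were not tested. Genes were named by rule: in each direction the 12 with the smallest p among those that passed and had 1 sign in 3 of 3 pairs, and the 6 by largest change among those with a mean of at least 20 CPM, the 6 with the smallest p where fewer than 6 passed, up to 4 called members per list and direction, and a panel of 25 markers (a further gene of the panel is not reported here), of which Dclk1, Neurod1, Notch1 and Pou2f3 were not tested. The Y-linked genes and Xist were chosen after their values were seen. The fits were tested on 10 simulated data sets with 200 changed genes each. The 72 h fit recovered 38.9% of 1.5-fold and 72.4% of 2-fold changes, with 3.47% of calls false. The 72 minus 48 h fit recovered 13% and 50.1% (2.77% false), and the 72 minus 24 h fit 4.5% and 34.3% (5.6% false). A gene that did not pass may therefore still differ by such amounts. Alternatives covered pairing, libraries in the fit, DESeq2 1.42.0 and its size factors, count filters, library totals, robustness and leaving out each pair.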

Additional observations from a re-analysis of the deposited data

Results flagged for a closer look

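The difference between 170 and 130 min pulses at 72 h itself differed from that at 48 h for 8 genes (edgeR interaction test, adjusted p under 0.05, 0.0732% of 10936 genes), which is why each is listed here. Mucl3 differed by -2.51 on the log2 scale (SE 0.33). Its counts at 48 h were 22, 30 and 74 at 170 min and 15, 16 and 68 at 130 min, and at 24 h 0, 18 and 6 at 170 min and 4, 41 and 2 at 130 min. Aldoc differed by 1.11 (SE 0.19), with 194, 178 and 144 counts at 170 min and 136, 156 and 144 at 130 min after 48 h. CT010467.1 differed by 1.44 (SE 0.19), with changes of 0.65 at 72 h and -0.79 at 48 h. Its counts at 72 h were 180, 285 and 112 at 170 min and 67, 129 and 81 at 130 min, and at 48 h 87, 101 and 76 at 170 min and 121, 157 and 92 at 130 min. Ces1d, a carboxylesterase, differed by 1.21 (SE 0.23), with changes of 1.03 and -0.18.

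Cybrd1, a duodenal ferric reductase of iron uptake, differed by -1.23 (SE 0.22), with changes of -0.83 at 72 h and 0.40 at 48 h and counts at 72 h of 35, 60 and 53 at 170 min and 39, 89 and 79 at 130 min. Muc3, a membrane mucin of enterocytes, differed by -0.85 (SE 0.15), with changes of -0.42 and 0.43 and counts at 72 h of 87, 138 and 127 at 170 min and 64, 148 and 159 at 130 min.

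Angptl4, an inhibitor of lipoprotein lipase, differed by -5.16 (SE 0.97). At 72 h it had 0, 0 and 1 counts at 170 min and 1, 2 and 31 at 130 min, and at 48 h 1, 17 and 14 at 170 min and 1, 10 and 10 at 130 min. Hmgn3, a nucleosome-binding protein, differed by -3.18 (SE 0.61), with 1, 0 and 5 counts at 170 min and 2, 2 and 45 at 130 min after 72 h. Both rest on replicate 3 at 130 min, the library with the most Y-linked RNA at 72 h, and neither passed the count filter of the 72 h comparison.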

How the results depend on the processing

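Among 10230 genes, 1 was called higher and 5 lower at 170 min. The calls depended on the pairing and on which libraries entered the fit. Without the replicate block on the same 6 libraries 0 were higher and 0 lower (388 at an unadjusted p under 0.05). Fits over more libraries also gave 0 and 0: all 36 libraries with the block (619 at an unadjusted p under 0.05) or without it (592), and the 12 libraries of 72 h with a block over the 4 treatments (816). With the block on the 6 libraries, DESeq2 called 0 and 3 (101 at an unadjusted p under 0.05, 2 of the 6 genes shared), no count filter 35 and 74, the log2 library total as a covariate 27 and 17 (2 shared), thinned counts 0 and 6 (5 shared), and a fit that was not robust 1 and 14. The total was higher at 170 min in every pair, so the covariate is confounded with the period. DESeq2 size factors and a mean of at least 10 counts gave 1 and 5, the same 6 genes. Leaving out each pair gave 5 to 12 higher and 4 to 78 lower genes (11 and 17 without pair 3), with 3 to 6 of the 6 shared. The 72 minus 48 h calls, 3 positive and 5 negative, became 0 and 0 without the block and ranged over 0 to 17 positive and 0 to 24 negative when a replicate was left out. The 72 minus 24 h calls, 0 and 0, ranged over 4 to 6 and 0 to 6. The cause was not tested.

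Genes that were not called changed sign as follows. Sis was at -0.049 without the block and at -0.052 with all 36 libraries unblocked. With no filter Ascl2 was at 0.0078. With the covariate Dll4 was at -0.00037, Mki67 at 0.015, Muc2 at 0.29, Reg3b at -0.39 and Tff3 at 0.11. After thinning Alpi was at -0.015, Ascl2 at 0.15 and Dll4 at -0.049. Leaving out each pair gave -0.40 to 0.017 for Muc2, -0.0056 to 0.64 for Reg3b, -0.16 to 0.24 for Alpi, -0.098 to 0.14 for Ascl2, -0.049 to 0.43 for Atoh1, -0.058 to 0.52 for Dll4, -0.11 to 0.87 for Fabp1, -0.21 to 0.028 for Mki67, -0.19 to 0.45 for Sis and -0.39 to 0.0015 for Lgr5. Beside the sign changes above, 383 values for single genes kept their direction and call, 38 kept their direction but were no longer called, all of them of the 6 genes, and 18 became called. Of 476 list medians 36 changed sign, 9 with the covariate, 20 when a pair was left out and 7 otherwise, for main medians of up to 0.21 in size, and 20 moved by more than the SD between pairs, 18 of them with the covariate. Genes below the count filter were not tested, and counting error limits those just above it.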

Other observations

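Lists outside the comparisons above had 0 members called at 72 h. The unfolded protein and integrated stress response list had 23 of 35 tested members lower and a median of -0.07. Its lowest p belonged to Slc7a11, the cystine transporter, which had 188, 173 and 136 CPM at 170 min and 279.8, 221 and 247 CPM at 130 min, without overlap (-0.58 ± 0.13, edgeR adjusted p = 0.165). Gclc, the rate-limiting enzyme of glutathione synthesis and a member of the xenobiotic metabolism list, had 236, 273 and 283 CPM at 170 min and 398, 342 and 439 CPM at 130 min, also without overlap (-0.56 ± 0.13, edgeR adjusted p = 0.204). That list had 25 of 46 members higher and a median of 0.01. Heat shock and chaperonin genes were lower in 14 of 18 and in 3 of 3 pairs for 9 (16.5% of all tested genes), with a median of -0.07. Mitochondrially encoded genes were lower in 9 of 9, with 5 lower in 3 of 3 pairs (16.5% of all) and a median of -0.21, beside the lower mitochondrial share of the 170 min libraries.

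Immune-related lists had medians of -0.05 over 15 interferon response genes, -0.15 over 6 antigen presentation genes and -0.04 over 15 NF-kB and inflammatory genes. Medians were -0.17 over 15 Wnt targets, -0.09 over 6 BMP targets, -0.12 over 9 M cell genes, 0.07 over 28 PPAR and fatty acid oxidation genes, 0.11 over 20 solute carriers, -0.03 over 15 duodenal and ileal identity genes and -0.03 over 13 villus bottom antimicrobial genes. The 10 epithelial genes had a median of -0.11. Solute carriers show the spread between pairs, with medians of -0.12, 0.71 and 0.09 in pairs 1 to 3.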
